A study of Homo sapiens with 8 samples.

Results

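The regions described are H3K27ac peaks that were higher in the alectinib-resistant line erAlec0 and in the lorlatinib-resistant line erLor0 than in treatment-naive cells, but not in the crizotinib-resistant line erCriz0. Members were selected on their peak values: a change from naive cells of at least 1 on the log2 scale in erAlec0 and in erLor0, and of under 0.5 in erCriz0. In all, 4000 of 126470 peaks met the rule, a share of 3.16%. The lines derive from H3122, a lung adenocarcinoma line that depends on the EML4-ALK fusion kinase. The resistant derivatives had been selected by gradual dose escalation and were grown in 0.5 µM crizotinib (erCriz0), 2 µM alectinib (erAlec0) or 2 µM lorlatinib (erLor0), and their chromatin, like that of naive cells, was collected in DMSO vehicle. RNA was isolated after culture without inhibitor. Each line is a single derivation and gave 1 ChIP-seq and 1 RNA-seq library, so none of the differences can be checked against replicates and no test was run. The changes of the 3 resistant lines share the same naive library. A second crizotinib line, a second lorlatinib line, cells treated with lorlatinib and the pooled input DNA of the series were not analysed here.

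H3K27ac is the acetylated form of lysine 27 of histone H3. It is laid down by the acetyltransferases p300 and CBP at active promoters and enhancers, and broad stretches of it often lie over genes that define a cell's identity. Crizotinib, alectinib and lorlatinib all bind the kinase domain of ALK, and crizotinib also inhibits MET and ROS1. The values are regularized log (rlog) values, on a log2 scale, in which features with few reads are drawn toward their mean over the libraries, so that changes of weak peaks are understated.

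The cells matched their label by RNA. KRT7, KRT8, KRT18, KRT19, EPCAM and CDH1, genes of epithelial cells, lay between 11.38 and 15.17 rlog in the 4 libraries, and NKX2-1, the lineage factor of lung epithelium, between 8.67 and 9.18. The surfactant-cell genes NAPSA and SFTPB stayed under the level at which a gene was counted as expressed, 4.64 rlog, which is log2 of 25 reads. The leukocyte gene PTPRC was listed at 0 in every library.

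The central 300 bases of 2 members are shown, on the plus strand of hg38, to give the letters behind one of the strongest gains and behind the HOPX locus. The window is centred on the middle of the peak, which need not be its summit. Capitals mark matches, on either strand, to the AP-1, TEAD, GATA, NKX2 and CEBP motifs, of which only those of GATA factors and CEBP were found in these windows. The first window belongs to the member ranked 5 by the smaller of its gains in erAlec0 and erLor0.
chr19:12913380-12913679, at GCDH and SYCE2: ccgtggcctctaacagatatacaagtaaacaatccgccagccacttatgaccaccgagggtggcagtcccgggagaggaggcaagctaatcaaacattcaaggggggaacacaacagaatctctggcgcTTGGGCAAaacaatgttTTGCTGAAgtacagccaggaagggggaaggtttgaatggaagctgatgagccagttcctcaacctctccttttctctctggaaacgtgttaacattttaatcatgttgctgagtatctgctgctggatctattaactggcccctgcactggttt
chr4:56692402-56692701, upstream of HOPX: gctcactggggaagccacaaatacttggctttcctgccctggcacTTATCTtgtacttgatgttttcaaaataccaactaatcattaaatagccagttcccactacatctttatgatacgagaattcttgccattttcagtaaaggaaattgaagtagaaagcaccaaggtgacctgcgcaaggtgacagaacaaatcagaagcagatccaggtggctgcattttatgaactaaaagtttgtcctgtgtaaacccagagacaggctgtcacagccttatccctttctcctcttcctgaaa

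The GCDH window held 48.7% G and C and 6 CG steps, and the HOPX window 42.3% and 2. The CEBP motif was matched 2 times in the GCDH window and the GATA motif 1 time in the HOPX window. Windows without a match are not shown, so that a match in these says nothing of other members.

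The 4 strong members given here lay at 4.03 to 5.47 rlog in naive cells and in erCriz0, where the medians of all peaks were 4.12 and 4.03. The member of rank 1, an intergenic peak of 2961 bases at chr8:129792976-129795936 near GSDMC, had 4.89 rlog in naive cells, 4.88 in erCriz0, 7.66 in erAlec0 and 8.15 in erLor0. The member in an intron of SV2B, at chr15:91144144-91146446, had 4.36, 4.53, 8.11 and 7.11 rlog in the same order. A member between genes in the miRNA cluster of chromosome 19, at chr19:53769592-53771385, had 4.03, 4.06, 7.17 and 6.71 rlog. The GCDH member at chr19:12911806-12915253 had 5.20, 5.47, 7.88 and 7.88 rlog. In each case naive cells and erCriz0 lay together and erAlec0 and erLor0 lay at least 2 units above them. The change of other peaks within 5 Mb of these 4 members had a median between -0.27 and 0.22 in erAlec0 and between -0.12 and 0.12 in erLor0.

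The members of highest mean level were broad promoter peaks. That at chr12:6210869-6243838, over CD9, a tetraspanin of the cell surface, spans 32970 bases and had 11.75 rlog in naive cells, 11.63 in erCriz0, 12.79 in erAlec0 and 12.85 in erLor0. That at chr5:1543507-1571791, over the pseudogene SDHAP3, had 12.44, 12.71, 13.84 and 13.44 rlog. That at chr17:57516021-57533433, within MSI2, an RNA-binding protein gene, had 11.21, 11.59, 12.36 and 12.40 rlog. The smaller of the gains of each was thus near the limit of 1, on peaks that were already strong in naive cells.

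Over all 4000 members the median level was 4.47 rlog in naive cells, 4.36 in erCriz0, 6.24 in erAlec0 and 5.87 in erLor0. Over all peaks these medians were 4.12, 4.03, 4.13 and 4.02. Members therefore started at about the level of other peaks. In naive cells 1536 members (38.4%) lay under 3.91 rlog, log2 of the minimum of 15 reads that the study set for peaks, and 951 (23.8%) lay under it in naive cells and erCriz0 and above it in both other lines. Another 293 members (7.33%) lay under it in all 4 libraries, compared with 31.7% of all peaks. An rlog value is not a read count, so these are not counts of peaks with fewer than 15 reads.

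The gain was larger in erAlec0 than in erLor0 for 2951 members (73.8%), with medians of 1.65 and 1.31. A gain of at least 2 was reached by 1156 members in erAlec0, by 272 in erLor0 and by 165 in both. The rule capped the change in erCriz0 at under 0.5, so its spread over members was set on 1 side. Over all peaks, without this cap, the change in erCriz0 had a median of 0 and quartiles of -0.45 and 0.43. Among members in erCriz0, 1992 (49.8%) lay under 0 and 22 at -1 or lower. The member with the largest loss there lies at chr19:20317864-20325287 and had 8.52 rlog in naive cells, 6.52 in erCriz0, 9.97 in erAlec0 and 9.55 in erLor0.

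**Figure D1:**
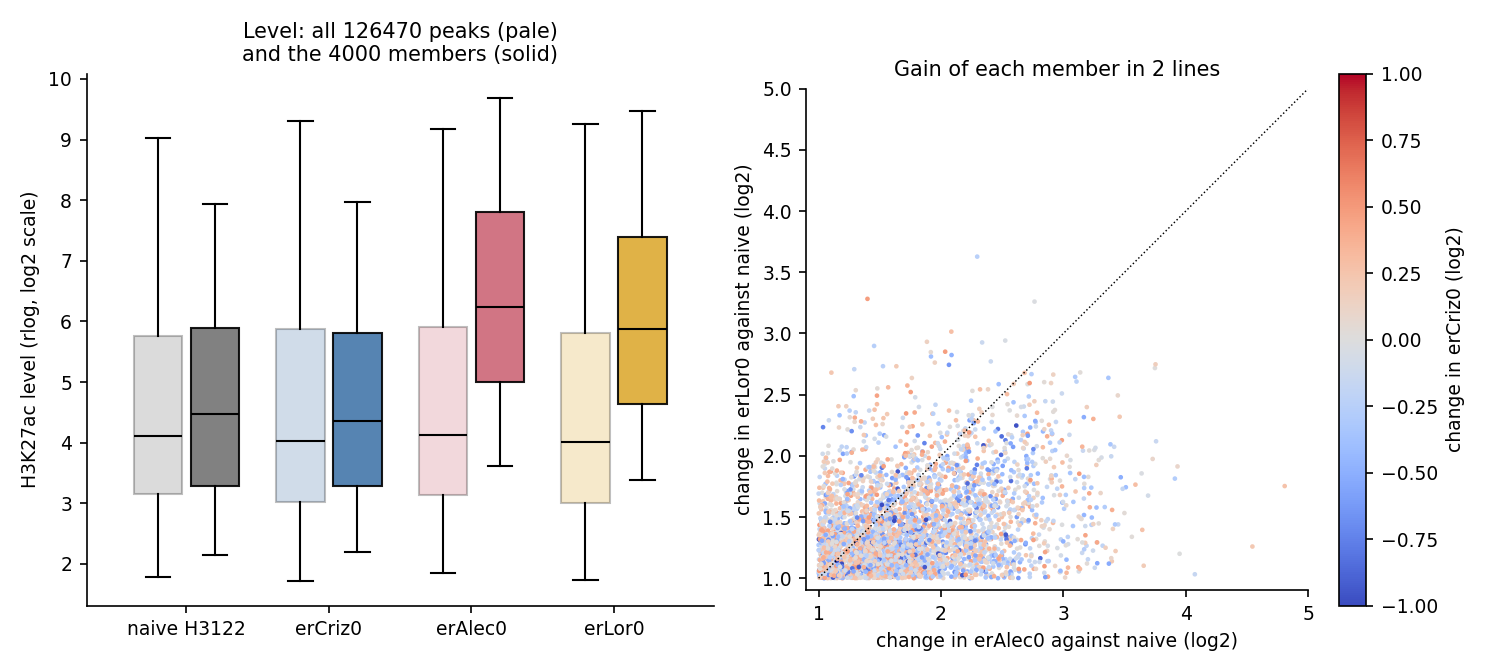
Left, H3K27ac level (rlog, log2 scale) in the 4 libraries, with boxes from the lower to the upper quartile, the median as a line and whiskers at the 5th and 95th percentiles, for all peaks (pale) and members (solid). Right, the change of each member in erAlec0 and erLor0 (log2), coloured by its change in erCriz0, where 2951 of 4000 points lie to the right of the dotted line of equal gain.

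The limits cut through a continuous range. Members with a smaller gain of 1 to under 1.1 numbered 988, and 1182 further peaks with a smaller gain of 0.9 to under 1 met the erCriz0 limit and narrowly failed. Just inside, a peak at chr2:237854586-237855779 changed by 1.00 in erAlec0 and 1.27 in erLor0, and just outside, a peak at chr12:56781417-56782875 changed by 1.24 and 0.9997. Of the 5404 peaks that gained at least 1 in both lines, 1039 changed by 0.5 to under 1 in erCriz0. A peak at chr17:78213968-78215553 was the last inside that limit, at 0.4999, and one at chr7:151923960-151924426 the first outside, at 0.5003.

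Members were long. Their median length was 1254 bases, compared with 522 for all peaks. With peaks split by length into 4 classes of 25%, members made up 0.492% of the shortest class, 1.55% and 4.46% of the next and 6.16% of the longest. By mean level the shares were 0.984%, 2.10%, 4.57% and 4.997% from the lowest to the highest class. This mean includes the erAlec0 and erLor0 values that selected members, so the rule itself raises it for members. Short and weak peaks have their changes drawn toward 0 by the rlog transform, and its part in these shares was not tested. At the upper end, 56 members (1.40%) and 1.28% of all peaks spanned at least 10 kb.

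Most members lay away from gene starts. By GENCODE annotation on hg38, 866 members (21.65%, 95% Wilson interval 20.4 to 23.0, counting error only) lay within 1 kb of a transcription start, 422 (10.55%) overlapped another exon, 1968 (49.2%) lay in introns and 744 (18.6%) between genes. The shares over all peaks were 26.7%, 8.36%, 47.6% and 17.3%. Promoter members were stronger at the outset, with a median of 5.50 rlog in naive cells against 4.04 for intronic members. In naive cells 23.6% of promoter members lay under 3.91 rlog, against 42.5% of the members farther from a start. The gains of promoter members were close to those of intronic members, at 1.56 and 1.64 in erAlec0 and 1.32 and 1.28 in erLor0.

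The place of members differed from that of the peaks most like them. Of 365 peaks that gained at least 1 in all 3 lines, 50.1% lay at promoters. Of 6217 peaks that gained at least 1 in erAlec0 and under 0.5 in erLor0 and erCriz0, 12.4% did, and 61.8% were intronic. The interval of each share lies apart from the members' promoter interval, but the intervals cover counting error only and the 3 sets differ in length and level. The median length was 1305 bases for the peaks of all 3 lines, and the median naive level was 5.06 rlog for these and 2.75 for those of erAlec0 only.

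**Figure D2:**
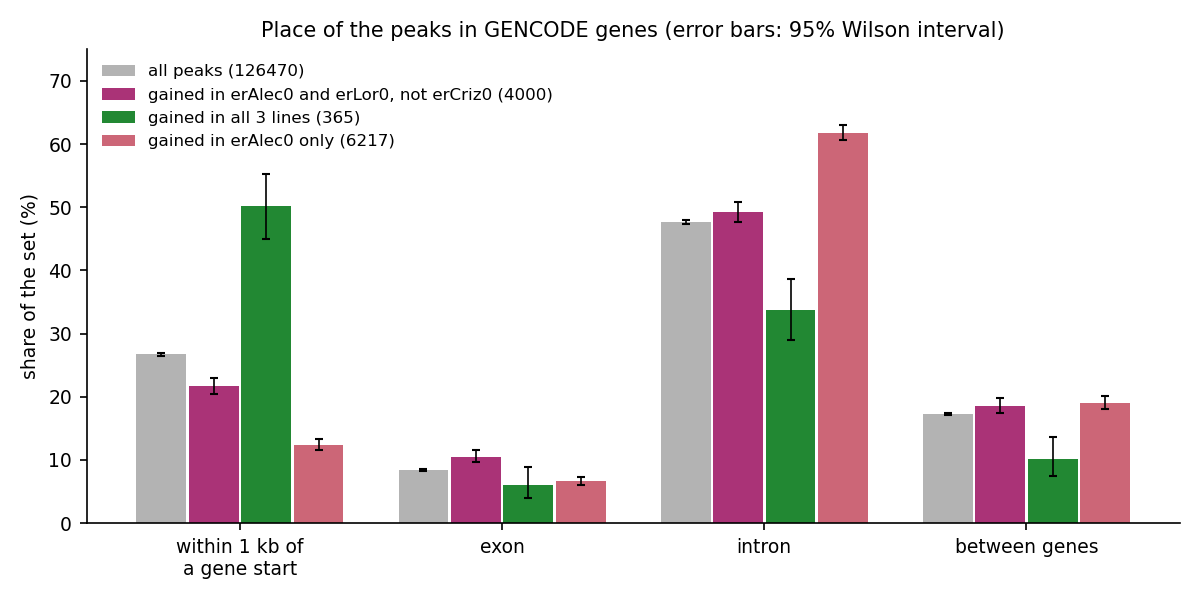
Share of each peak set (%, with 95% Wilson intervals as error bars) within 1 kb of a gene start, in exons, in introns and between genes. At gene starts members (purple) lie between peaks gained in all 3 lines (green, 50.1%) and peaks gained in erAlec0 only (red, 12.4%). In exons members lie above both, at 10.55% against 6.03% and 6.66%.

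Members came in runs along the chromosomes. Of the 4000, 2259 (56.5%) lay within 20 kb of another member. Joined over gaps of at most 20 kb they formed 2613 runs, of which 1741 were single peaks and 53 held at least 5 members. The share grows with the number and local density of peaks in a set, and it was 13.4% for the 365 peaks of all 3 lines, 62.9% for the 6217 of erAlec0 only and 94.2% for all peaks.

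The longest run, of 12 members, covered 85.3 kb at chr17:17900283-17985612, over TOM1L2 and the neighbouring start of ATPAF2. It held 12 of the 32 peaks inside it, with median changes of 1.76 (erAlec0), 1.39 (erLor0) and -0.18 (erCriz0). The run at EYA2, chr20:46949131-47010665, held 11 members among 19 peaks, with medians of 1.67, 1.60 and -0.13, and that at RNF144B, chr6:18385722-18452511, 11 among 33, with 2.02, 1.54 and -0.17. At KSR2, chr12:117492960-117518964, 10 of 11 peaks in 26.0 kb were members. A run of 9 members among 14 peaks at chr3:138068511-138116658 and one of 8 among 9 at chr10:113478779-113500337 were paired with no expressed gene. In the KSR2, EYA2 and chromosome 10 runs most of the peaks inside, rather than a single one, were thus members.

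Part of the members lay in regions where other peaks were higher too. Extra copies of a region would raise all of its peaks, and no subtraction of input is stated. In 2 Mb bins, 1014 of 1460 bins held a member. In 197 bins the median of the peaks that are not members changed by at least 0.5 in erAlec0, and these bins held 17.6% of members and 8.70% of all peaks. The 32 such bins of erLor0 held 2.40% and 1.36%, and the 12 bins that met both held 0.675% and 0.172%. These medians come from the same libraries as the changes that selected members, so the shares are a description only. Measured from the median of the other peaks of their bin, members had a median gain of 1.504 in erAlec0 and 1.28 in erLor0, and 2774 (69.35%) were at least 1 above it in both lines. Members were selected for their gain and the other peaks are those left out. An excess over them was therefore set by the rule and says nothing of copy number.

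The bin with the most members was 116 to 118 Mb of chromosome 12, where 23 of 112 peaks were members and the other peaks had a median change of 0.69 in erAlec0 and 0.49 in erLor0. The bin of RNF144B, 18 to 20 Mb of chromosome 6, held 21 of 110, with 0.86 and 0.36 for other peaks. In the bin of TOM1L2, 16 to 18 Mb of chromosome 17, 20 of 285 peaks were members and other peaks changed by 0.63 and 0.28. At 116 to 118 Mb of chromosome 1, where the median of other peaks changed by 1.47 in erLor0 and by 0.02 in erAlec0, 14 of 381 peaks were members, a share of 3.67%. At 68 to 70 Mb of chromosome 3, 13 of 79 peaks were members while the others changed by -0.13 and -0.10. The part of copy number in these gains was not tested. The share of members ran from 1.85% on chromosome 19 to 4.64% on chromosome 18, leaving aside chromosome Y, which held 51 peaks and 0 members.

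**Figure D3:**
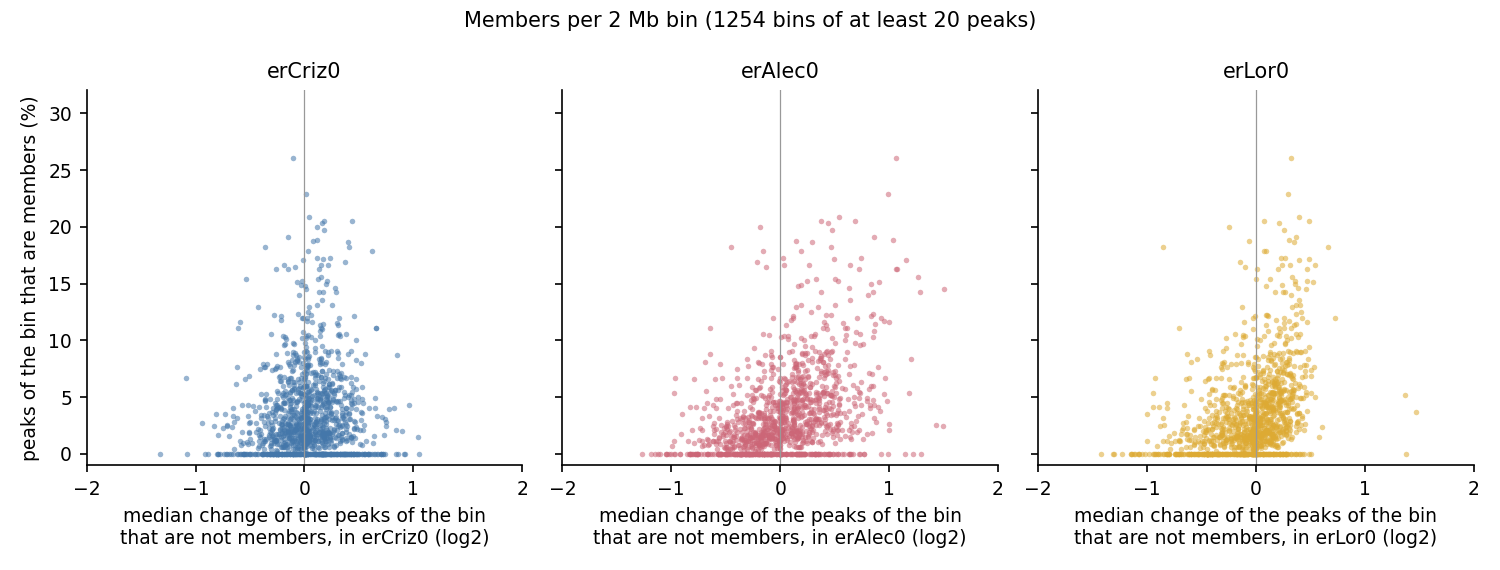
Share of the peaks of each 2 Mb bin that are members (%, vertical axis) against the median change of the peaks of that bin that are not members (log2, horizontal axis) in each resistant line, for 1254 bins of at least 20 peaks. Of the 87 bins with over 10% members, 78 lie to the right of 0 in erAlec0, 70 in erLor0 and 59 in erCriz0. Of the 977 plotted bins with any member, 562, 516 and 542 do. Both axes come from the libraries that selected members, so the counts are a description only. The highest share is 26.1%.

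The central windows of members were poorer in G and C than those of other peaks, with a median of 45.7% against 48.0% for all peaks, 51.7% for the peaks of all 3 lines and 44.7% for those of erAlec0 only. In these windows 19 motifs were searched on both strands, and matches of different motifs may overlap. A match is a string of letters and not a bound site.

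AP-1 (TGANTCA), the motif of FOS and JUN dimers, was matched in 326 members (8.15%, interval 7.34 to 9.04) and in 9.69% of all peaks. Among the longest 25% of peaks, taking those that lie over 1 kb from a start and so are closer to members in length and place, the shares were 9.86% and 14.9%. ETS (CCGGAA), common at promoters, was matched in 2.83% of members and 4.69% of all peaks, and in 2.55% and 3.55% of the long distal peaks. The CEBP motif, TTGCNNAA, was matched in 15.5% of members and 12.5% of all peaks, but in 15.5% and 14.8% of the long distal ones. NKX2 (CACTTGA), the family motif of NKX2-1, was matched in 9.20% and 7.83%, and in 9.36% and 7.42% of the long distal peaks. Its share was 9.06% in peaks gained in erAlec0 only, near that of members, and 4.11% in peaks gained in all 3 lines. The motif of GATA factors, spelled AGATAA, was matched in 16.1% and 14.1% of windows, but in 16.8% and 17.3% of the long distal ones, so that its direction turned with the choice of peaks. The E-box motifs CAGCTG (form 1) and CACCTG (form 2) were matched in 14.1% and 27.7% of members and in 15.6% and 30.0% of all peaks. TEAD (GGAATG), the motif of the factors that YAP binds, was matched in 16.5% and 15.9%, and in 19.1% and 17.2% of the long distal peaks. RUNX (TGTGGT) was matched in 19.8% and 19.9%.

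**Figure D4:**
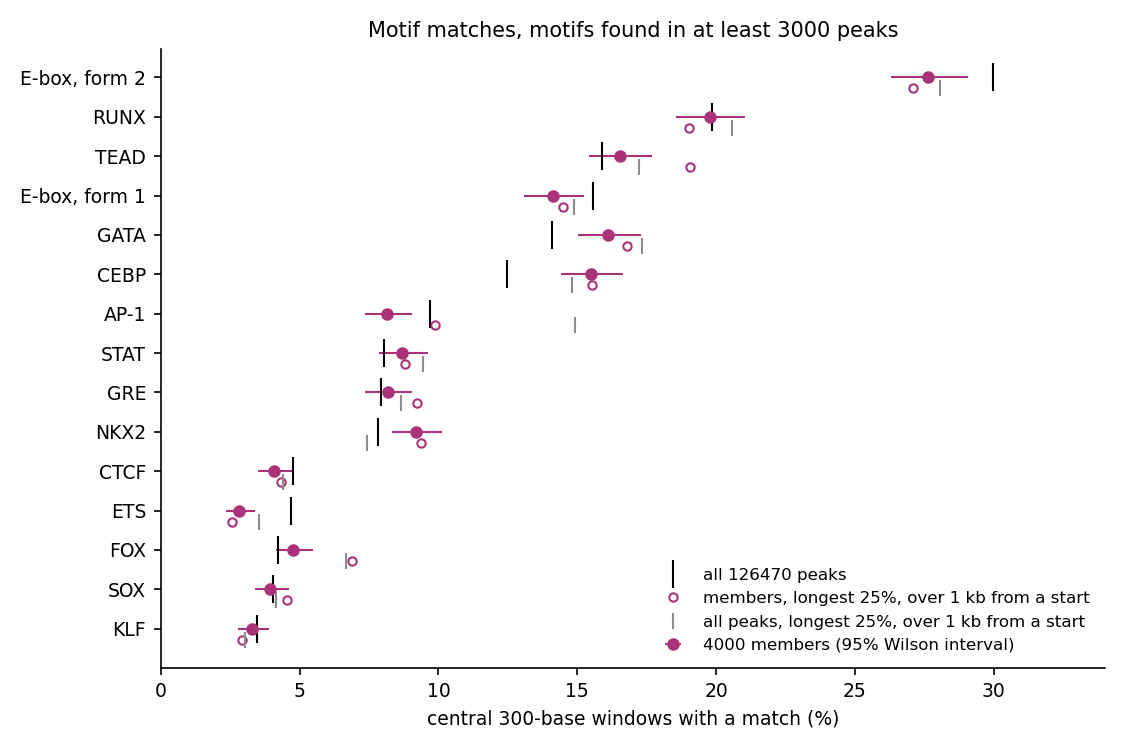
Share of central 300-base windows with a match (%) for the 15 motifs found in at least 3000 peaks, in members (filled points, 95% Wilson interval) and all peaks (long ticks), and below them in long peaks away from starts (open points for members, short ticks for all). In both comparisons AP-1, ETS, RUNX, KLF, CTCF and both E-box forms lie to the left of the tick of all peaks, some only narrowly. NKX2, CEBP, TEAD, FOX and GRE lie to its right in both, and GATA, STAT and SOX change sides.

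Peaks were paired by the study with every gene within 20 kb. Members were paired with 4849 genes, of which 2343 are protein-coding and 1346 are long noncoding RNA genes in GENCODE. Of these, 1712 were expressed, which is 13.5% of the 12701 expressed genes of the table. Genes with a member had a median of 12 peaks, against 8 for all expressed genes, and a gene with more peaks has more chances to hold a member. No expressed gene was paired with 1483 members (37.1%), compared with 28.1% of all peaks.

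RNA was not used to select members. The median RNA change of the 1712 paired genes was 0.05 in erAlec0, 0.06 in erLor0 and 0.02 in erCriz0, while over all expressed genes it was 0.00, -0.00 and -0.02. An RNA change of at least 1 was seen in erAlec0 for 66 paired genes (3.86%, background 2.46%), in erLor0 for 33 (1.93%, background 1.1%) and in erCriz0 for 44 (2.57%, background 2.65%). A change of -1 or lower was seen for 32 (1.87%, background 2.07%), 5 (0.292%, background 0.74%) and 22 (1.29%, background 1.65%). Nearly all paired genes thus stayed within 2-fold of naive cells, and the shares above 2-fold exceeded the background in erAlec0 and erLor0. At a change of at least 2 on the log2 scale the direction turned in erAlec0, with 1 paired gene (0.0584%) against 0.181% of all expressed genes, and in erLor0 the shares were 0.0584% and 0.0551%. For genes with a peak gained in all 3 lines, 4.10% rose by at least 1 in erAlec0, 2.61% in erLor0 and 6.34% in erCriz0. For genes with a peak gained in erAlec0 only, these shares were 4.45%, 1.21% and 4.70%. A share above the background was thus not particular to genes paired with members.

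Genes whose own start lay within 1 kb of a member stood further from the background. For these 397 genes the median RNA change was 0.11 in erAlec0, 0.14 in erLor0 and -0.03 in erCriz0, and 6.05%, 3.78% and 2.77% of them changed by at least 1. For the 1315 genes with members only elsewhere the medians were 0.04, 0.04 and 0.04. Genes with 5 or more members, 73 in number, had medians of 0.13, 0.17 and 0.04. A change of at least 1 in both erAlec0 and erLor0 was found for 17 paired genes (0.993%, background 0.551%), 11 of them with a member at their own start, and one of -1 or lower in both for 5 (0.292%, background 0.512%).

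The deposited values come in 2 parts written to different numbers of decimals. In the part with at most 6 decimals, RNA was up in erAlec0 for 2.62% of paired genes and 1.90% of all expressed genes, and in erLor0 for 1.16% and 0.721%. In the other part the shares were 4.68% and 2.84% in erAlec0, and 2.44% and 1.36% in erLor0.

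HOPX, a homeodomain-only protein made by alveolar type I cells, had the largest RNA gain of the paired genes by the smaller of its changes in both lines. Its RNA was at 4.96 rlog in naive cells, 4.70 in erCriz0, 6.95 in erAlec0 and 7.37 in erLor0. Of its 25 peaks 3 were members. The member over its start, at chr4:56679509-56683811, had 8.17, 8.18, 9.72 and 9.50 rlog, and the member whose window is printed above had 5.11, 4.77, 6.54 and 6.46. RNA and both of these peaks were thus high in the same 2 lines. Other peaks within 5 Mb changed by a median of 0.41 in erAlec0 and 0.29 in erLor0.

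CECR2, a bromodomain protein of chromatin remodelling complexes, had 4.81 RNA rlog in naive cells, 4.85 in erCriz0, 6.66 in erAlec0 and 6.58 in erLor0. Of its 21 peaks 8 were members, in 1 run of 31.4 kb that starts beside a transcription start. The peak at chr22:17369708-17370331 had 2.66, 3.001, 5.72 and 4.94 rlog, and the intronic peak at chr22:17378781-17381033 had 4.76, 4.41, 7.18 and 5.94. The naive and erCriz0 values of most of the 8 members lay under 3.91 rlog. Other peaks within 5 Mb changed by 0.15 and 0.09.

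NXN, nucleoredoxin, a thioredoxin-like protein, had 6.04, 5.50, 7.78 and 7.19 RNA rlog in naive cells, erCriz0, erAlec0 and erLor0. It had 9 members among 49 peaks, the broadest of 12041 bases at chr17:923993-936033, with 8.24, 7.95, 10.99 and 10.27 rlog. Other peaks within 5 Mb changed by 0.06 and 0.07.

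MSLN, mesothelin, a glycoprotein of the cell surface, had 3.96, 4.21, 6.11 and 5.62 RNA rlog, and 1 member, at its start (chr16:758906-762930), with 7.89, 7.35, 9.47 and 9.36. PXDC1 had 6.46, 6.86, 7.99 and 7.58 RNA rlog and a member of 17679 bases over its start with 9.86, 9.37, 12.14 and 11.40. PACSIN3, a membrane-bending protein of endocytosis, had 7.90, 8.10, 8.998 and 8.98 RNA rlog. The membrane mucin MUC15 had 3.50, 3.52, 4.69 and 4.57, and the SH2 adaptor SHE had 3.64, 3.84, 4.85 and 4.70. MUC15 and SHE thus stayed near the limit of expression, 4.64 rlog, and MUC15 lay under it in erLor0. All 5 had a member at their own start, and their naive and erCriz0 RNA lay closer to each other than to the other 2 lines.

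TOM1L2, a protein of endosomal traffic, had 8.50 RNA rlog in naive cells, 8.40 in erCriz0, 9.94 in erAlec0 and 9.64 in erLor0. Its broadest member, of 14993 bases at chr17:17937309-17952301, had 8.99, 8.79, 11.96 and 11.10 rlog. RASD1, a Ras-related GTPase, had 9.95, 10.69, 11.38 and 11.25 RNA rlog with 1 member among 15 peaks, and MAPK7, the kinase ERK5, had 7.68, 7.41, 8.98 and 8.70 with 1 among 6. These 3 genes lie on chromosome 17 where other peaks within 5 Mb changed by 0.69 to 0.74 in erAlec0 and 0.25 to 0.29 in erLor0. The MAPK7 member covers the start of MFAP4 and not its own.

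The other 4 genes with the largest RNA gains in both lines had members away from their start or had RNA that was high in erCriz0 also. SIPA1L2, a Rap GTPase-activating protein, had 8.24, 8.24, 9.28 and 9.30 RNA rlog and 4 members among 19 peaks. ACOXL had 3.67, 3.63, 4.75 and 4.84, near the limit of expression, with 1 member among 28 peaks. RAB31, a small GTPase of vesicle traffic, had 8.72, 10.82, 10.13 and 10.14, and so was highest in erCriz0, where its 2 members were not gained. TMEM200C had 4.32, 5.39, 6.13 and 5.56, and 1 of its 2 peaks was a member.

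For 5 paired genes the members were higher and the RNA was lower in both lines. EYA2, a transcriptional co-activator with phosphatase activity, had 7.14 RNA rlog in naive cells, 5.22 in erCriz0, 5.94 in erAlec0 and 6.10 in erLor0, although 11 of its 37 peaks were members. Its member at an internal start, chr20:46988222-46993704, had 7.49, 7.25, 9.84 and 9.71 rlog. RNA was lowest in erCriz0, which had none of these gains. ANK2, ankyrin-B, had 8.23, 7.22, 6.11 and 6.53 RNA rlog, with 2 intronic members among 15 peaks, and the median of all its peaks changed by -0.24 in erAlec0 and -0.33 in erLor0. AMPD3, an AMP deaminase, had 7.35, 7.44, 6.06 and 6.26. GINS1, a subunit of the replicative helicase, had 7.36, 6.19, 5.90 and 6.27, but its 1 member overlaps ABHD12 and not GINS1. The long noncoding RNA HELLPAR had 6.45, 5.90, 5.15 and 5.31, and its 2 members overlap IGF1 and LINC02456 but not HELLPAR. Around HELLPAR, other peaks within 5 Mb changed by 0.51 in erAlec0 and 0.18 in erLor0, and around GINS1 by -0.20 and -0.18.

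**Figure D5:**
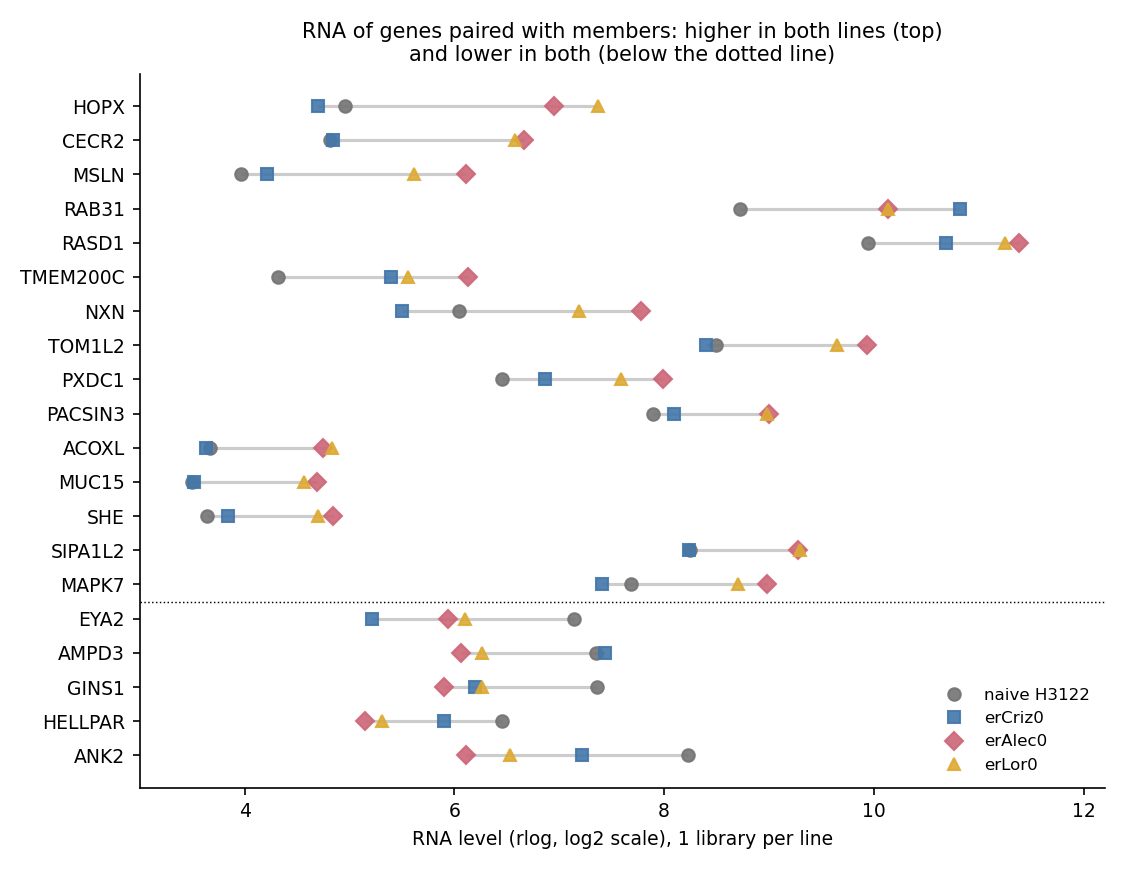
RNA level (rlog, log2 scale, 1 library per line) in the 4 lines. Above the dotted line are the 15 paired genes with the largest RNA gain over naive cells in both erAlec0 and erLor0, by the smaller gain. Under it are the 5 that were lower by at least 1 in both. In most genes of the upper group the grey and blue points of naive cells and erCriz0 lie together on the left, with RAB31, RASD1 and TMEM200C as exceptions.

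Genes with the most members often showed little RNA difference. RNF144B, a ubiquitin ligase, had 14 members among 48 peaks and RNA of 8.50, 8.33, 8.78 and 8.94 rlog in naive cells, erCriz0, erAlec0 and erLor0. MSI2 had 11 among 56 and 10.85, 10.77, 10.81 and 10.84. KSR2, a scaffold of the RAF-MEK-ERK cascade, had 10 among 22 and 5.49, 5.12, 4.95 and 5.42. NOS1AP had 9 among 48 and 5.65, 5.55, 5.36 and 5.49, and BMP8A, a ligand of the TGF-beta family, had 8 among 21 and 4.72, 4.83, 4.62 and 4.96. In none of these 5 did RNA differ from naive cells by as much as 1 in any line.

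MOB3B and EVL were the others of this group besides TOM1L2, EYA2 and NXN. MOB3B had 11 members among 33 peaks, and its RNA was at 8.68 rlog in naive cells and at 9.45 to 9.51 in all 3 resistant lines, erCriz0 included. EVL, an actin regulator of the Ena/VASP family, had 9 among 34, and RNA of 9.04, 10.34, 9.63 and 9.17, highest in erCriz0.

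Gene lists of pathways linked to resistance held members in uneven numbers, to be read against the 13.5% of all expressed genes. Among receptor tyrosine kinases 4 of 23 expressed genes had a member, FGFR1, FGFR3, IGF1R and ALK. IGF1R, the insulin-like growth factor receptor, had 6 members among 73 peaks and RNA of 10.94, 11.04, 11.12 and 11.11 rlog. FGFR1, a fibroblast growth factor receptor, had 6.38, 6.61, 7.29 and 6.82. ALK itself, the driver gene, had 2 members among 47 peaks and RNA of 8.18, 10.65, 9.58 and 8.10, so that its RNA followed another order than its members. Among ligands of the ERBB receptors 1 of 7 had a member, HBEGF, with RNA of 7.87, 7.71, 9.24 and 8.75. Among genes of ERK feedback and output it was 1 of 19, SPRED2.

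The YAP and TEAD list had members at 5 of 19 expressed genes, and these 5 genes had median RNA changes of 0.47 (erCriz0), 0.87 (erAlec0) and 0.63 (erLor0). Over all 19 the medians were 0.29, 0.37 and 0.21. WWTR1, which encodes the co-activator TAZ, had 4 members among 18 peaks and RNA of 9.52, 10.92, 10.39 and 10.51 rlog. CCN1, a secreted target of YAP, had 8.09, 8.56, 9.20 and 8.90, and YAP1 had 9.60, 9.99, 9.99 and 9.81. RNA of all 3 was above naive cells in erCriz0 as well. None of the 12 expressed FOS, JUN and related AP-1 genes and none of the 10 cell survival genes had a member. Beside the 13.5% of all expressed genes, an absence from lists this short says little.

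Lung lineage genes had members at 6 of 20, namely NKX2-1, LPCAT1, HOPX, MUC5B, CEBPA and GRHL1. NKX2-1 had 8.68, 8.67, 9.13 and 9.18 RNA rlog, LPCAT1, an enzyme of surfactant lipid synthesis, had 9.95, 10.20, 10.57 and 10.82, and the factor CEBPA had 6.18, 6.19, 6.51 and 6.51. In these 3 naive cells and erCriz0 lay lowest and both other lines highest, by less than 1 over naive cells. MUC5B, a secreted mucin, had 13.77, 14.01, 14.48 and 14.27. Only 1 of the 21 peaks of MUC5B was a member, and the median of all 21 changed by -1.07 in erAlec0 and -0.24 in erLor0. GRHL1, a factor of epithelial cells, had 9.57, 9.37, 9.44 and 9.70 RNA rlog, below naive cells in erAlec0. In RNA only HOPX of this list passed 1 in both. Over all 20 genes the median RNA changes were 0.05 (erCriz0), 0.13 (erAlec0) and 0.10 (erLor0).

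Of the EMT list, genes of the epithelial to mesenchymal transition, 4 of 13 had a member, TWIST2, VIM, SPARC and CD44. VIM, vimentin, had 5.74, 8.13, 7.20 and 6.27 RNA rlog and SPARC, a matrix protein, had 4.56, 6.22, 5.53 and 5.03. Both were highest in erCriz0, where their members were not gained. CD44, the hyaluronan receptor, had 10.25, 11.57, 10.88 and 11.76.

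Of extracellular matrix and integrin genes 5 of 25 had a member. COL4A1, a chain of basement membrane collagen, had 6.40, 6.17, 7.88 and 6.85 RNA rlog and its neighbour COL4A2 had 7.998, 7.93, 9.49 and 8.63. Both were highest in erAlec0. In the TGF-beta list it was 4 of 14, with TGFBR2, a receptor of this pathway, at 7.13, 8.23, 7.92 and 7.63.

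Of drug handling and redox genes 5 of 17 had a member, and 3 of these, AKR1C1, AKR1C2 and AKR1C3, neighbouring genes of aldo-keto reductases, had RNA below naive cells in all 3 resistant lines. AKR1C2 had 7.92, 5.09, 4.96 and 6.93 RNA rlog, with 2 members among 12 peaks, one at its start. AKR1C3 had 6.32, 5.26, 4.46 and 5.39. Reads of these near-identical genes may have been split between them. Of 24 WNT and Notch genes 5 had a member, with median RNA changes of -0.43, -0.43 and -0.22 in erCriz0, erAlec0 and erLor0, whereas the medians over all 24 were 0.05, 0.17 and 0.05. FZD7, a WNT receptor whose 2 peaks were both members, had 5.94, 5.51, 5.49 and 5.73. Of epithelial junction and keratin genes 3 of 26 had a member, of inflammatory genes 1 of 11 and of interferon genes 3 of 14.

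Among markers of other cell types, CDH5, the cadherin of endothelial cells, moved with the members, at 4.10, 4.28, 5.78 and 5.64 RNA rlog, and KDR was at 6.58, 5.43, 6.02 and 7.01. The defining endothelial genes PECAM1 and VWF lay at -0.13 to 0.19 rlog in every library, and the part of other cells in the results was not tested. COL1A1 lay at 9.49, 9.71, 9.99 and 10.08, while DCN, LUM and PDGFRB lay at 1.45 to 2.25. In bulk samples, more cells of one state and more signal per cell cannot be told apart.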

How the data were processed

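H3K27ac ChIP-seq and RNA-seq values of 4 lines (naive H3122, erCriz0, erAlec0, erLor0) were used. Each line gave 1 library per assay. The authors deposited 1 table of 295240 peak-gene pairs, with gaps of up to 20 kb, with log2 values that they computed from read counts with the rlog function of DESeq2. They aligned ChIP-seq reads to hg38 with BWA, removed duplicates, called peaks with MACS2, merged them and counted reads with featureCounts. RNA reads were aligned with HISAT2 and counted with HTSeq-count. Versions and strandedness are not given in the sources used here. The rlog values hold no read totals, so sequencing depth is unknown. The authors' columns of correlations, p-values and means over the libraries were not used, and 0 columns of per-sample values were left unmapped.

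Each peak and gene was counted once, and changes are differences of rlog values, resistant line minus naive library. Genes were counted as expressed at log2 of 25 reads or more in 1 library, and as higher or lower at a change of 1. Gene starts, exons and names came from GENCODE release 44 on hg38. Of 43869 genes, 43641 had a symbol there, and all 34115 with the same identifier version had identical coordinates. Bases came from hg38, and all 24 chromosomes of the table matched it. Named are the members with the 5 largest smaller gains and the 3 highest levels, the 10 expressed genes with the most members, up to 15 paired genes higher by 1 in both lines, up to 6 lower by 1, and paired genes of the lists. Not every item under this rule is reported here. The members and lists were chosen with earlier results of these data known. The member with the largest loss in erCriz0 and the runs and bins were picked from their values. The scripts recovered what simulated data were made with. The simulated gains lay well past the limits, so this checks the code and not the members near the limits. The scripts ran in Python 3.11.15 with scipy 1.17.1, numpy 2.4.6, matplotlib 3.10.9 and pandas 2.3.3.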

Additional observations from a re-analysis of the deposited data

How the results depend on the processing

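Of 141 values under other settings, 97 stayed within the interval or factor set for them, 43 moved and 1 turned its sign. No paired analysis was possible because each line has 1 library and no result comes from a test. The number of members was 937 at a gain of at least 1.5, 1992 with erCriz0 under 0, and 1691 and 2309 in the parts of the table written to at most 6 and to more decimals. The promoter share was 19.1% with erCriz0 under 0, 26.8% with erCriz0 under 1, 20.1% with each library centred on its median, 18.99% after quantile normalization, 20.2% in the part of at most 6 decimals, and 18.5% and 27.3% for starts within 0.5 and 2 kb. The share within 20 kb of another member was 37.6% at a gain of 1.5, 44.2% with erCriz0 under 0, 58.4% after quantile normalization, 53.7% for peaks above log2 of 15, 54.8% in the part of at most 6 decimals, and 63.9% within 50 kb, and smaller sets have fewer neighbours by construction. The AP-1 share was 5.53% in 200 and 13.4% in 500 central bases and 9.19% in the longest 25% of peaks.

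For RNA, the median change in erCriz0 was 0.0529 in the part of at most 6 decimals, 0.0473 for members paired with 1 gene, 0.0761 with RNA centred on expressed genes and -0.0293 for genes with a member at their own start. In erAlec0 it was 0.00820 over all genes not at 0, 0.0340 for members paired with 1 gene, 0.0862 after centring and 0.109 with a member at the own start, and in erLor0 it was 0.00974 over all genes not at 0 and 0.140 with a member at the own start. The share up in erCriz0 was 1.39% over all genes not at 0. In erAlec0 it was 2.62% in the part of at most 6 decimals, 2.03% over all genes not at 0 and 6.05% with a member at the own start, and in erLor0 the same settings gave 1.16%, 1.02% and 3.78%, and counting each pair gave 2.82%. At an RNA limit of 0.58 the shares up were 8.53%, 11.2% and 8.82% in erCriz0, erAlec0 and erLor0, and at a limit of 2 they were 0.467%, 0.0584% and 0.0584%, where all expressed genes gave 0.496%, 0.181% and 0.0551%. So at a limit of 2 the paired genes were not above the background in erAlec0. Unless the setting itself changes which peaks or genes are counted, the cause was not tested. The settings on decimals, long peaks and own starts were added after the data had been seen. With 1 library per line, no difference here is measured against the spread between cultures, and the rlog scale leaves weak peaks and genes little room to change.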
